A study of Mus musculus with 6 samples.

Results

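The 37 immediate early and acute stress genes described here encode AP-1 and other early transcription factors, phosphatases and other feedback inhibitors, mRNA decay factors and growth arrest proteins. They were chosen as a list of gene symbols, and every probe set that the platform annotation gives to 1 of these symbols was taken, which yielded 68 probe sets. All 37 were found among the 18193 named genes on the array. Gene expression was measured on Affymetrix arrays in whole fetal mouse lungs at stage E18.5, with 1 array for each of 6 animals. The 3 tested animals were Nfib f/f, Dermo1-Cre and the 3 controls were Nfib f/f, so floxed Nfib alleles were common to both groups and only the Cre differed by label. Nfib encodes the transcription factor nuclear factor I B. Dermo1 (Twist2) drives Cre in mesenchyme, whereas the RNA came from the whole organ, epithelium, endothelium and blood cells included. The comparison addresses what loss of mesenchymal Nfib changes in the maturing lung.

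Immediate early genes are transcribed within minutes of a growth factor, cytokine, stretch or injury signal, without prior protein synthesis, by factors such as SRF and CREB that already sit at their promoters. Their mRNAs are short-lived, and many of the encoded proteins end the response by removing phosphates from MAP kinases or by destroying AU-rich mRNAs. In tissue samples they are also known to respond to dissection and handling.

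Nfib itself did not check the labels. Its brightest probe set read 11.24, 11.16 and 11.49 in lungs labelled Dermo1-Cre, against 10.24, 10.32 and 10.17 in lungs labelled control. Of 6 tested Nfib probe sets 5 rose, by 2.05-fold to 2.20-fold (limma adjusted p 0.00487 to 0.0497), and 1 did not pass (-0.11 ± 0.13 SE, limma adjusted p = 0.708), opposite to a loss of Nfib mRNA. The sources used here do not say whether these probes lie inside the excised exon. The lungs are therefore called Cre-labelled and control-labelled, and each direction rests on the labels. All levels below are deposited log2 signals, listed for replicates 1, 2 and 3 of a group in that order, and each difference is Cre-labelled minus control-labelled on the log2 scale, with its standard error (SE) from limma. A level is compared between lungs for 1 probe set and never between probe sets. The labelled tissue was borne out by its markers, with Sftpc, the type II cell surfactant gene, at 12.63, 12.43 and 12.91 in Cre-labelled and 12.23, 12.44 and 13.52 in control-labelled lungs.

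Immediate early genes were lower in Cre-labelled lungs where they changed. By the brightest probe set of each gene, 33 of the 37 members had a mean high enough to be tested (at least 4.0027 over all 6 arrays, the 40th percentile). Of these 33, 7 fell at a limma adjusted p under 0.05, none rose and 26 did not pass. The 7 were Fos, Gadd45g, Ier3, Maff, Dusp1, Zfp36 and Ccn1, and their falls ran from 2.72-fold for Fos to 1.5-fold for Ccn1. They made up 21.2% of the tested members, where 3.04% of the 12826 genes tested on the array fell and 1.92% rose. The median log2 difference was -0.39 over the tested members and -0.01 over all tested genes. In 18 of the 33 members (54.5%) every Cre-labelled lung read below every control-labelled lung, against 16.5% of all genes, and in 2 members (6.06%) every Cre-labelled lung read above, against 15.3% of all genes. The members were chosen with earlier results of these data known, so these shares and medians describe the list and do not test it. Because RNA came from the whole organ, fewer cells of a type and less RNA per cell cannot be told apart.

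**Figure D1:**
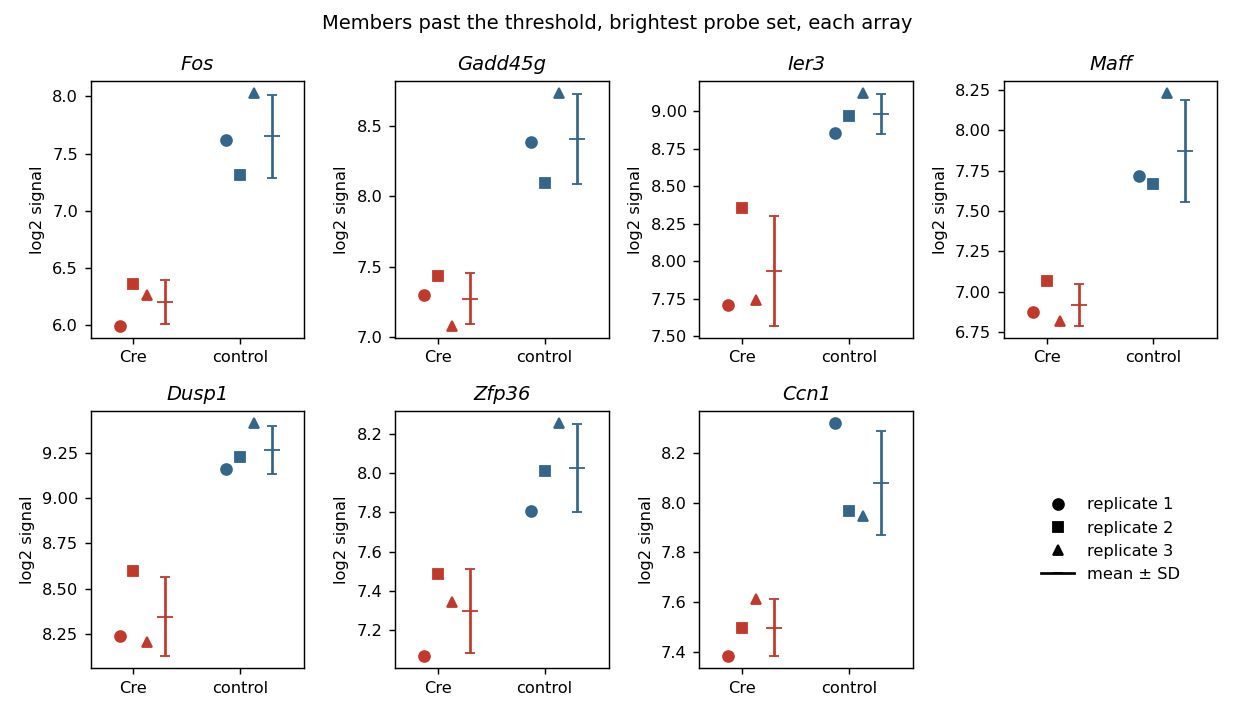
Log2 signal (y axis) of the 7 members past the threshold in 3 Cre-labelled lungs (left, red) and 3 control-labelled lungs (right, blue). Marker shapes are the replicates and the bars are mean ± SD. The groups do not overlap in any of the 7 panels, and control-labelled replicate 3 is the highest lung in all of them but Ccn1.

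The count of 7 depended on the arrays and on the fit. Without Cre-labelled replicate 1 or 3 it was 3, without control-labelled replicate 2 or 3 it was 4, and without either of the other lungs it was 5. The count over all tested probe sets also dropped in these fits, to 314 to 495 against 963. Fos, Gadd45g and Dusp1 passed in all 6 of these fits, Maff in 4 (not without Cre-labelled replicate 1 or 3), Ier3 in 2, and Zfp36 and Ccn1 in 0. Fos alone passed without an intensity trend in the variance (limma adjusted p = 0.045).

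Of 12 cardiac muscle genes, 1 fell (Myh7, -1.03 ± 0.21 SE, limma adjusted p = 0.0311), while all 12 had a lower mean in Cre-labelled lungs. They had overlapping summed linear signals of 2091.5 to 5118.5 in Cre-labelled lungs, against 3775.0 to 12574.6 in control-labelled lungs. With the mean log2 signal of these genes as a covariate none of the 7 passed (limma adjusted p 0.06 to 0.374), and Gadd45b did (0.0436). The log2 differences were then -1.47 for Fos, -1.37 for Gadd45g, -1.14 for Ier3, -1.18 for Maff, -1.04 for Dusp1, -0.78 for Zfp36 and -0.32 for Ccn1, so that 6 of the 7 were as large as without the covariate and that of Ccn1 was smaller. Of the other marker lists, 11 macrophage and leukocyte genes summed to 3706.3 to 4531.6 in Cre-labelled and 5694.0 to 6760.7 in control-labelled lungs. Of these, 9 of 11 had a lower mean. Lyz2 (lysozyme), whose signal weighed most in these sums, alone passed the threshold (-0.88 ± 0.14 SE, limma adjusted p = 0.0149). Groups also lay apart in Fcer1g and Cd52, and overlapped in the others, Ptprc, Cd68, Csf1r, Adgre1 and Mrc1 among them. The 5 tested neutrophil genes, all lower and with S100a8 and Ngp past the threshold, summed to 740.4 to 1092.0 in Cre-labelled and 1377.0 to 1670.8 in control-labelled lungs, while the granule genes Mpo and Elane lay below the level required for testing. The 11 endothelial genes, of which 10 were lower and none passed, summed to 8511.8 to 10783.8 in Cre-labelled and 11927.9 to 13805.4 in control-labelled lungs. The 9 genes of mesenchyme, in which the Cre acts, summed to 14086.9 to 15466.4 in Cre-labelled and 14826.0 to 16068.8 in control-labelled lungs, with 2 of 9 lower and none past the threshold. The 5 genes listed for mesothelium, the pleural lining, summed to 1663.7 to 2018.2 in Cre-labelled and 2864.1 to 3549.4 in control-labelled lungs, with 4 lower. Of these, Msln (mesothelin) fell by more than Fos (-1.55 ± 0.17 SE, limma adjusted p = 0.00488), and Krt19 also fell. Wt1 had a higher mean in Cre-labelled lungs (0.47 ± 0.30 SE, limma adjusted p = 0.437), and groups overlapped in Wt1, Upk3b and Lrrn4. The 8 epithelial genes overlapped in their sums, at 16872.0 to 17399.0 in Cre-labelled and 16954.2 to 26494.5 in control-labelled lungs, with 7 lower and the surfactant gene Sftpb past the threshold (-1.27 ± 0.20 SE, limma adjusted p = 0.0148). The 2 tested erythroid genes, both lower and neither past the threshold, summed to 435.3 to 822.8 in Cre-labelled and 937.1 to 1060.1 in control-labelled lungs. The 5 tested skeletal muscle genes, of which none passed, averaged 5.20, 5.34 and 5.74 in Cre-labelled and 9.36, 6.14 and 5.54 in control-labelled lungs, so that control-labelled replicate 1 stood apart. The 3 tested liver genes overlapped and none passed. For comparison with the counts of these lists, 3.04% of all tested genes fell and 51.5% had a lower mean. The part of these cell types in the immediate early differences was not tested. The difference between 3' and 5' probe sets of Actb and Gapdh, a measure of RNA integrity, was 0.04 to 0.45 in Cre-labelled and 0.08 to 0.23 in control-labelled lungs, and with it as a covariate 7 members passed, Mafk in place of Ccn1.

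To show the control regions of the genes that fell together, the promoters of the 6 with the largest falls are given, each 5' to 3' and covering 250 bases before and 50 after the start site (RefSeq, GRCm38.p6). Capitals mark matches to a set of motifs searched on both strands.
Fos promoter, chr12:85473640-85473939, plus strand: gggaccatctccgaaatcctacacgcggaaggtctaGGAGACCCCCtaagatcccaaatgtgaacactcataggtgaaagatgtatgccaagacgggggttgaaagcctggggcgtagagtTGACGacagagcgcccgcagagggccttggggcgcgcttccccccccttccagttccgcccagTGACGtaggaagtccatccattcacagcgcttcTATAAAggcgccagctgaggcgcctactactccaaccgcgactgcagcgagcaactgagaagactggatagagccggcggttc
Gadd45g promoter, chr13:51846425-51846724, plus strand: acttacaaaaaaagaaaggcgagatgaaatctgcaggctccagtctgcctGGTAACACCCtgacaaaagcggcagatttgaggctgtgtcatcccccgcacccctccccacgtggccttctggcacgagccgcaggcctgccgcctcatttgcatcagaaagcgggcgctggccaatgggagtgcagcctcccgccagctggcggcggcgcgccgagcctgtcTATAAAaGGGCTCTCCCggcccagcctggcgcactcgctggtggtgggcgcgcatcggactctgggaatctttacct
Ier3 promoter, chr17:35821463-35821762, plus strand: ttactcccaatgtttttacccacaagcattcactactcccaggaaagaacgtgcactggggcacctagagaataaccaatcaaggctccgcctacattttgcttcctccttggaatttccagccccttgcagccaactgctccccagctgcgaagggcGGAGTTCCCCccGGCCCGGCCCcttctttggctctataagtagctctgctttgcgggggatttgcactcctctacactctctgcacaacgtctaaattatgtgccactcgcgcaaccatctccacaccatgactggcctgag
Maff promoter, chr15:79346371-79346670, plus strand, the first of 3 start sites: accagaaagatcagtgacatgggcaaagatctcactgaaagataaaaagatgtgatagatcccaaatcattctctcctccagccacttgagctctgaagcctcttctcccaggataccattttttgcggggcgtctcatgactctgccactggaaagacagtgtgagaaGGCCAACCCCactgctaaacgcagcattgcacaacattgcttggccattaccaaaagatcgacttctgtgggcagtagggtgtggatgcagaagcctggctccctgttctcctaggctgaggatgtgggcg
Dusp1 promoter, chr17:26508423-26508722, minus strand: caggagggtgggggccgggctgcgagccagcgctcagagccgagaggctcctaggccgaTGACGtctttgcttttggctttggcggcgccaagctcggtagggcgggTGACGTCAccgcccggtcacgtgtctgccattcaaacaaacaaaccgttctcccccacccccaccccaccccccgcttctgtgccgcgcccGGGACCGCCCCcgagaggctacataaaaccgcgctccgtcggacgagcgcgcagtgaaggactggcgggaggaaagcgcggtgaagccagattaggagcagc
Zfp36 promoter, chr7:28379179-28379478, minus strand: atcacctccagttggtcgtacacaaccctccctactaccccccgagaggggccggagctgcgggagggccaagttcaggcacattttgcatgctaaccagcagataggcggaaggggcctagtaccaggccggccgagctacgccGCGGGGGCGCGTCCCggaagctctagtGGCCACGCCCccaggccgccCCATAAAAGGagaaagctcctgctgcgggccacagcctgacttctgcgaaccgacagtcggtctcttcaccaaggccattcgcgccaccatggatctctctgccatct

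The motifs were the CREB site TGACGTCA (CRE), its core TGACG, the AP-1 site TGANTCA, the CArG box bound by SRF, the Egr site GCGNGGGCG, an NF-kB-like pattern (GGG, then 5 bases of any kind, then CC), the glucocorticoid receptor site (GNACA, then 3 bases of any kind, then TGTNC) and TATAAA. The core overlaps the full CRE, and the Egr and NF-kB-like matches of Zfp36 overlap each other. The table held a window for 30 of the 37 members, 39 windows in all. Egr2, Maff and Csrnp1 have several start sites, and windows of Egr2 overlap one another. The Dusp1 window held a full CRE from base -143 to -136, and Fos held the core at -129 to -125 and at -66 to -62 with TATAAA from -33 to -28. Full CREs were also in windows of Btg2, Ppp1r15a and the second start site of Maff, so that 10.3% of member windows matched, against 1.80% of 32534 distinct promoter windows. The core was in 61.5% of member windows and 20.9% of all. Zfp36 held a CArG box, CCATAAAAGG, from -58 to -49 and an Egr site from -105 to -97. A CArG box stood in windows of 3 members, Egr2, Zfp36 and Dusp5. These were 15.4% of member windows, several of them overlapping windows of Egr2, against 1.64% of all windows. The Egr site was in 28.2% of member windows and 5.60% of all, and the NF-kB-like pattern in 71.8% and 51.0%. AP-1 sites were in 5.13% and 7.79%, the glucocorticoid receptor site in 1 member, Jund (2.56% of member windows), and in 0.476% of all windows. TATAAA was in 23.1% of member windows and 13.6% of all. These are letter matches in short windows. Members that fell and members that did not pass both hold the CRE, its core, the CArG box, the Egr site, the NF-kB-like pattern and TATAAA. The AP-1 site (Zfp36l1 and Csrnp1) and the glucocorticoid receptor site were in no window of a member that fell.

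Among the AP-1 genes, whose proteins dimerise through leucine zippers to bind DNA, Fos had the largest difference of the 33 tested members. Fos read 5.99, 6.36 and 6.27 in Cre-labelled lungs, against 7.62, 7.31 and 8.03 in control-labelled lungs. The gap between the groups exceeded the range within either, and Fos fell 2.72-fold (-1.44 ± 0.20 SE, limma adjusted p = 0.00855). It passed in 18 of 19 alternative fits, with a log2 difference of -1.62 to -0.95. The other Fos genes gave smaller or unmeasurable differences. Fosl2 (Fra-2), a more stable Fos protein, read 7.76, 8.19 and 8.30 in Cre-labelled and 8.56, 8.43 and 8.53 in control-labelled lungs, groups that did not overlap (-0.42 ± 0.14 SE, limma adjusted p = 0.141). Fosb read 1.21, 2.59 and 2.59 in Cre-labelled and 2.14, 2.28 and 2.34 in control-labelled lungs, and Fosl1 (Fra-1) read 0.89, -0.48 and 1.29 in Cre-labelled and 2.54, 1.02 and 3.97 in control-labelled lungs. Both lay below the level required for testing, their groups overlapped, and no call is made for them.

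The 3 Jun genes, partners of Fos in AP-1, had lower means in Cre-labelled lungs and none passed. Jun averaged 8.02 ± 0.07 in Cre-labelled and 8.41 ± 0.12 in control-labelled lungs (SD, n = 3 each) without overlap (-0.39 ± 0.11 SE, limma adjusted p = 0.0797). A dimmer Jun probe set also separated the groups, at -0.53 ± 0.15 SE (adjusted p = 0.0891 in limma), and with the mean of both Jun passed. Jund, the Jun gene least dependent on stimulation, differed by -0.29 ± 0.10 SE without overlap (limma adjusted p = 0.139), and Junb by -0.33 ± 0.24 SE with overlapping groups (limma adjusted p = 0.504). Atf3, a stress-induced bZIP repressor, averaged 5.18 ± 0.09 in Cre-labelled and 5.57 ± 0.18 in control-labelled lungs (SD, n = 3 each; limma adjusted p = 0.313).

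The small Maf proteins lack an activation domain and act by pairing with other bZIP factors such as Nrf2 and Bach1. Maff read 6.87, 7.07 and 6.82 in Cre-labelled lungs, against 7.72, 7.66 and 8.23 in control-labelled lungs. The groups were well apart, and Maff fell by 0.95 on the log2 scale (SE 0.17, limma adjusted p = 0.0194). Mafk read 5.99, 5.94 and 6.37 in Cre-labelled and 6.75, 6.63 and 6.89 in control-labelled lungs, without overlap, and did not pass (-0.66 ± 0.17 SE, limma adjusted p = 0.0701).

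**Figure D2:**
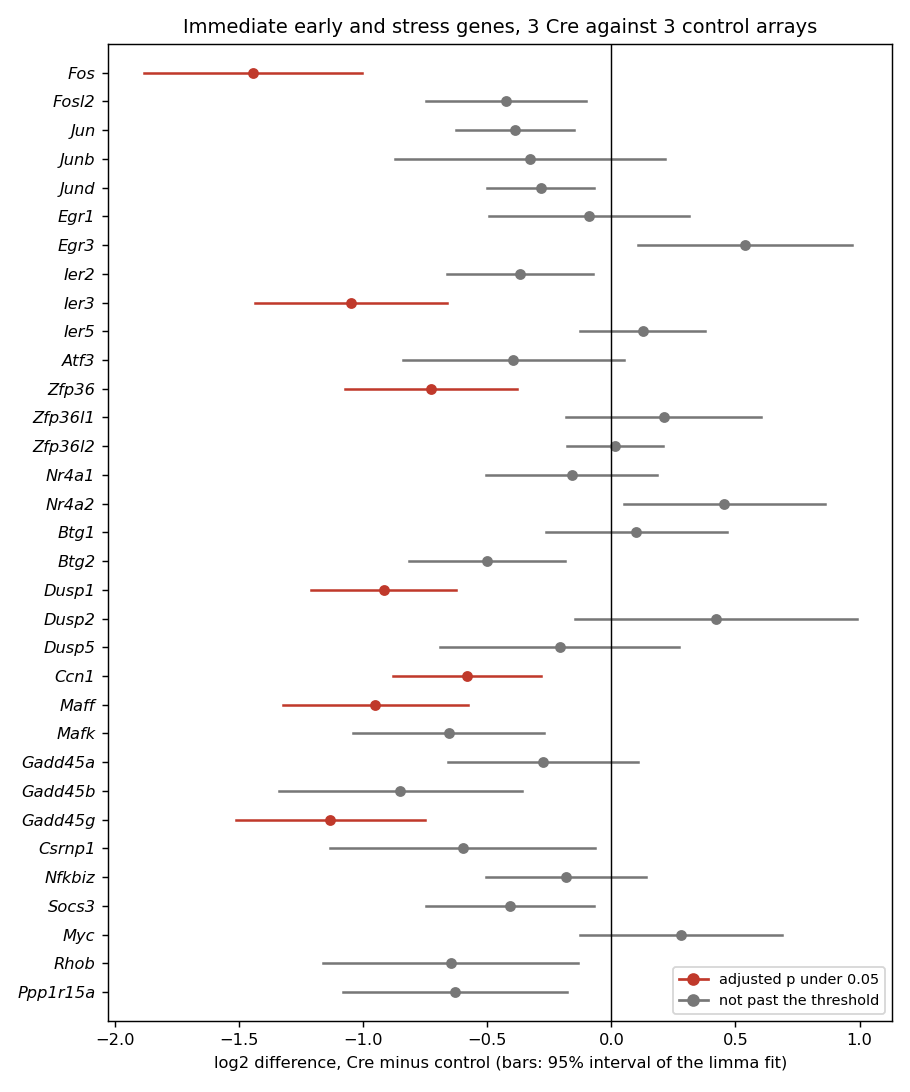
Log2 difference, Cre-labelled minus control-labelled (x axis), of the 33 tested members (y axis), with the 95% interval of the limma fit on 3 against 3 arrays. Red points passed an adjusted p of 0.05 and lie between -1.44 for Fos and -0.58 for Ccn1; 8 members, Egr3 the highest at 0.54, lie above 0.

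The Egr genes, zinc finger factors induced through SRF in the same minutes as Fos, did not follow it past the threshold. Egr1 read 6.53, 6.65 and 6.80 in Cre-labelled and 6.89, 6.40 and 6.97 in control-labelled lungs, with overlapping groups. Its log2 difference was -0.09 ± 0.18 SE, with a 95% interval from -0.49 to 0.31 (limma adjusted p = 0.833), which leaves room for a fall of that lower bound. Egr3 was among the few members with a higher mean, at 6.47, 6.59 and 6.31 in Cre-labelled and 5.62, 5.91 and 6.21 in control-labelled lungs. Its groups did not overlap, and the difference missed the threshold (0.54 ± 0.19 SE, limma adjusted p = 0.160). A dimmer Egr3 probe set was not tested. Egr2, at 3.25, 3.21 and 3.26 in Cre-labelled and 2.75, 3.17 and 3.82 in control-labelled lungs, lay below the level required for testing.

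The Nr4a genes encode orphan nuclear receptors that are controlled mainly by their own transcription. Nr4a1 (Nur77) averaged 6.44 ± 0.15 in Cre-labelled and 6.60 ± 0.14 in control-labelled lungs (SD, n = 3 each; limma adjusted p = 0.623). Nr4a2 (Nurr1) had 6 probe sets, of which the brightest was higher in each Cre-labelled lung (0.45 ± 0.18 SE, limma adjusted p = 0.201). The other 3 tested Nr4a2 probe sets had log2 differences of 0.09 to 0.40 with overlapping groups. The dimmest Nr4a2 probe set, not tested, ran the other way, at 2.73, 2.82 and 2.94 in Cre-labelled and 3.89, 3.74 and 4.32 in control-labelled lungs. Nr4a3 (Nor-1) averaged 2.67 ± 0.25 in Cre-labelled and 3.45 ± 0.89 in control-labelled lungs (SD, n = 3 each) and was not tested.

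Among other early transcriptional genes, Csrnp1, a nuclear protein gene, read 5.67, 6.05 and 5.14 in Cre-labelled and 6.30, 6.09 and 6.28 in control-labelled lungs. The groups were separated by a narrow gap, and the difference missed the threshold (-0.60 ± 0.24 SE, limma adjusted p = 0.203). Its second probe set, below the level for testing, ran the other way (3.31 ± 1.21 in Cre-labelled and 1.50 ± 0.13 in control-labelled lungs, SD, n = 3 each), and the mean of both gave 0.61. Myc, a driver of growth and division, averaged 6.85 ± 0.28 in Cre-labelled and 6.57 ± 0.20 in control-labelled lungs (SD, n = 3 each; limma adjusted p = 0.439).

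Of the feedback inhibitors, Dusp1 (MKP-1), the phosphatase that switches off p38, JNK and ERK, fell. Dusp1 read 8.24, 8.60 and 8.21 in Cre-labelled lungs, against 9.16, 9.22 and 9.41 in control-labelled lungs. The gap between groups exceeded the spread within either, and the fall was 1.89-fold (-0.92 ± 0.13 SE, limma adjusted p = 0.00927). Dusp2 and Dusp5, nuclear phosphatases of ERK, did not pass and pointed in different directions. Dusp2 read 6.28, 5.52 and 6.13 in Cre-labelled and 5.56, 5.25 and 5.86 in control-labelled lungs (0.42 ± 0.25 SE, limma adjusted p = 0.403). Dusp5 read 5.98, 5.83 and 6.25 in Cre-labelled and 5.94, 6.13 and 6.61 in control-labelled lungs (-0.21 ± 0.21 SE, limma adjusted p = 0.654). Groups overlapped in both.

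Ier3 (IEX-1), which modulates ERK signalling and cell survival, read 7.70, 8.36 and 7.74 in Cre-labelled lungs, against 8.86, 8.97 and 9.13 in control-labelled lungs. Cre-labelled replicate 2 stood above the other lungs of its group and still below every control-labelled lung. The fall was 2.07-fold (-1.05 ± 0.17 SE, limma adjusted p = 0.0158), and the call was lost without Cre-labelled replicate 1 or 3 or control-labelled replicate 2 or 3 (adjusted p 0.051 to 0.0575). Ier2, a nuclear protein gene, read 8.64, 8.75 and 8.43 in Cre-labelled and 8.80, 8.93 and 9.20 in control-labelled lungs, without overlap and short of the threshold (-0.37 ± 0.13 SE, limma adjusted p = 0.159). Ier5, a regulator of heat shock factor 1, read 8.29, 8.48 and 8.19 in Cre-labelled and 8.26, 8.23 and 8.10 in control-labelled lungs. Its groups overlapped (0.13 ± 0.11 SE, limma adjusted p = 0.593), and a dimmer Ier5 probe set was higher in each Cre-labelled lung (0.38 ± 0.17 SE, limma adjusted p = 0.263).

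Nfkbiz (IkB-zeta), a nuclear partner of NF-kB, gave different values by probe set. The brightest averaged 9.35 ± 0.27 in Cre-labelled and 9.53 ± 0.15 in control-labelled lungs (SD, n = 3 each; limma adjusted p = 0.535). The dimmest of its 3 probe sets read 5.78, 5.65 and 5.34 in Cre-labelled lungs, against 6.46, 6.45 and 7.38 in control-labelled lungs, and fell (-1.18 ± 0.26 SE, limma adjusted p = 0.0449). It was the only dimmer member probe set past the threshold, so that 8 of 51 tested member probe sets fell (15.7%), where 2.16% of all 27022 tested probe sets fell, 1.41% rose and 3.56% did either. Socs3, an inhibitor of JAK-STAT signalling, averaged 6.88 ± 0.20 in Cre-labelled and 7.29 ± 0.16 in control-labelled lungs (SD, n = 3 each) without overlap (limma adjusted p = 0.173), and its other 2 probe sets had lower means with overlapping groups.

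Zfp36 (tristetraprolin) binds AU-rich elements of early mRNAs and recruits the deadenylase that removes their poly(A) tails. Zfp36 read 7.07, 7.49 and 7.34 in Cre-labelled lungs, against 7.81, 8.01 and 8.26 in control-labelled lungs. The groups were apart by less than the range within each, and Zfp36 fell by 0.73 on the log2 scale (SE 0.15, limma adjusted p = 0.037). This call was lost in each of the 6 fits without 1 array and with arrays scaled to a common median. It was also lost with fetal sex, inferred from Xist and Y-linked genes, as a covariate (limma adjusted p up to 0.154 over all alternatives). Its paralogs, which bind the same elements, showed no such separation. Zfp36l1 read 11.04, 11.18 and 11.64 in Cre-labelled and 10.88, 11.03 and 11.32 in control-labelled lungs (0.21 ± 0.18 SE, limma adjusted p = 0.564). Zfp36l2 read 9.58, 9.62 and 9.60 in Cre-labelled and 9.57, 9.57 and 9.61 in control-labelled lungs, with a 95% interval of the difference from -0.18 to 0.21 (limma adjusted p = 0.948).

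Btg1 and Btg2 couple the same deadenylase to growth arrest. Btg2 read 9.32, 9.48 and 8.93 in Cre-labelled and 9.68, 9.71 and 9.84 in control-labelled lungs, without overlap (-0.50 ± 0.14 SE, limma adjusted p = 0.0844). Btg1 read 11.28, 11.24 and 11.66 in Cre-labelled and 11.04, 11.30 and 11.55 in control-labelled lungs, with overlap (0.10 ± 0.16 SE, limma adjusted p = 0.789). Neither passed.

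**Figure D3:**
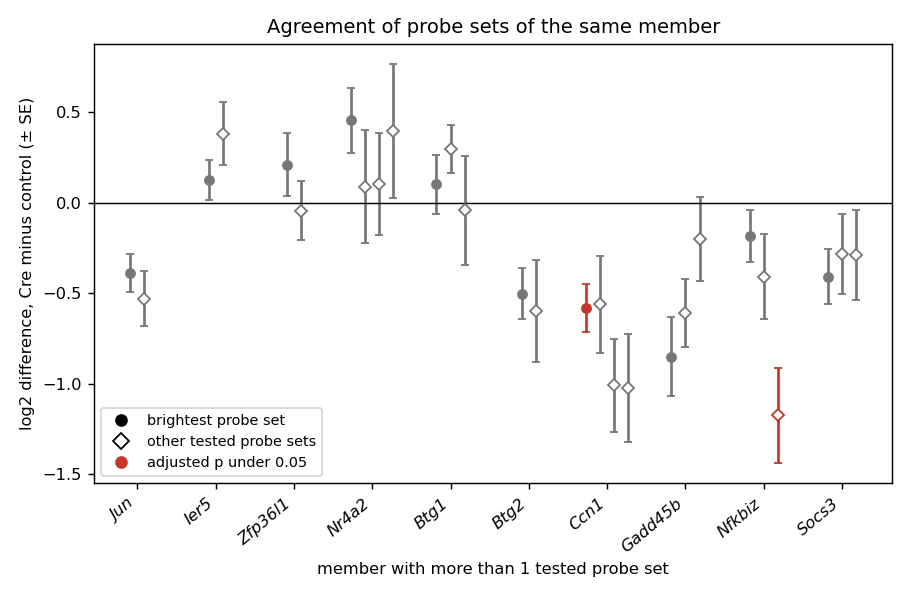
Log2 difference ± SE (y axis) of each tested probe set of the 10 members with more than 1 (x axis); filled circles are the brightest probe set, open diamonds the others, red an adjusted p under 0.05. All 4 Ccn1 probe sets lie below 0, whereas those of Zfp36l1 and Btg1 lie on both sides of it.

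Gadd45 proteins are small stress sensors that activate the p38 and JNK cascades and bind PCNA. Gadd45g read 7.30, 7.44 and 7.08 in Cre-labelled lungs, against 8.39, 8.10 and 8.74 in control-labelled lungs. The groups were widely separated, and the fall was 2.19-fold (-1.13 ± 0.17 SE, limma adjusted p = 0.0113), in 17 of 19 alternative fits past the threshold. Gadd45b read 8.18, 8.0 and 7.32 in Cre-labelled and 8.51, 8.57 and 8.98 in control-labelled lungs. Cre-labelled replicate 3 was the lowest by far, the groups did not overlap, and the difference missed the threshold (-0.85 ± 0.22 SE, limma adjusted p = 0.0655). A second Gadd45b probe set also separated the groups (-0.61 ± 0.19 SE, limma adjusted p = 0.109). The dimmest Gadd45b probe set did not (-0.20 ± 0.23 SE, limma adjusted p = 0.7). Gadd45a, the member of the family controlled by p53, read 6.38, 6.04 and 6.16 in Cre-labelled and 6.26, 6.60 and 6.56 in control-labelled lungs, with overlap (-0.28 ± 0.17 SE, limma adjusted p = 0.418).

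Ccn1 (Cyr61), a matrix-associated signalling protein and target of SRF and YAP, read 7.38, 7.49 and 7.61 in Cre-labelled lungs, against 8.32, 7.97 and 7.95 in control-labelled lungs. It fell (-0.58 ± 0.13 SE, limma adjusted p = 0.0483), and in 13 of 19 alternative fits, all 6 without 1 array among them, it was no longer past the threshold. The other 3 Ccn1 probe sets had log2 differences of -0.56 to -1.02 without passing (adjusted p 0.0655 to 0.291). Ppp1r15a (GADD34), which restarts translation after stress by directing a phosphatase to eIF2, read 7.08, 7.19 and 7.21 in Cre-labelled and 7.55, 7.52 and 8.31 in control-labelled lungs. Control-labelled replicate 3 stood apart within its group, and the difference missed the threshold (-0.63 ± 0.20 SE, limma adjusted p = 0.121). Rhob, an endosomal GTPase induced by stress, averaged 9.15 ± 0.38 in Cre-labelled and 9.80 ± 0.41 in control-labelled lungs with overlap (SD, n = 3 each; limma adjusted p = 0.156).

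Across members the lungs of a group did not vary evenly. Control-labelled replicate 3 had the highest level of its group in 23 of the 33 tested members, against 8 for replicate 1 and 2 for replicate 2. In the Cre-labelled group, replicate 2 was highest in 16, replicate 3 in 11 and replicate 1 in 6. The mean log2 signal over the 33 members was 7.50, 7.60 and 7.51 in Cre-labelled and 7.85, 7.82 and 8.04 in control-labelled lungs. Over the 7 members that fell it was 7.22, 7.54 and 7.29 in Cre-labelled and 8.27, 8.18 and 8.53 in control-labelled lungs, which repeats the rule by which these 7 were picked. Without control-labelled replicate 3 the median log2 difference of the members was -0.33.

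**Figure D4:**
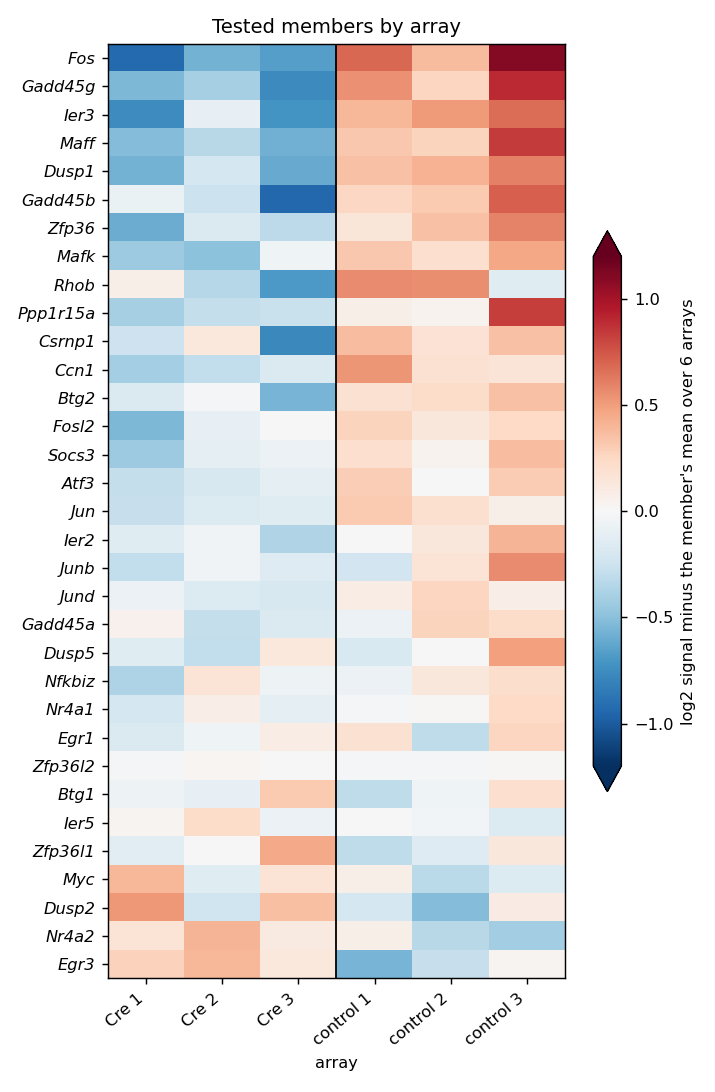
Log2 signal of the 33 tested members (rows, ordered by difference) on each of the 6 arrays (columns), as the deviation from the mean of that member over all arrays (colour). The upper rows, Fos to Ccn1, are mostly blue in the 3 Cre-labelled columns and red in the 3 control-labelled columns, with control-labelled replicate 3 the deepest red for Fos, Gadd45g, Maff and Ppp1r15a; the order of rows follows from the difference itself.

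Other early response genes outside the member list were tested on the same arrays. This list too was chosen with earlier results of these data known, so its shares are no independent test. Of 33 tested, 5 fell (15.2%) and none rose, where 3.04% of all tested genes fell and 1.92% rose. A lower mean was found in 26, against 51.5% of all tested genes, and the median log2 difference was -0.22. The 5 were Klf2 and Klf4, Kruppel-like factors of endothelium and epithelium, Ccn2 (connective tissue growth factor), the clock gene Per1, and Errfi1, an inhibitor of the EGF receptor. Klf2 read 6.90, 6.83 and 6.79 in Cre-labelled and 7.55, 7.77 and 7.50 in control-labelled lungs (-0.77 ± 0.13 SE, limma adjusted p = 0.0151). Ccn2, a relative of Ccn1, read 8.31, 8.58 and 9.07 in Cre-labelled and 9.63, 9.35 and 9.44 in control-labelled lungs (-0.83 ± 0.18 SE, limma adjusted p = 0.0386). Neither group overlapped its counterpart. Without 1 array Klf2 passed in 4 of 6 fits (not without control-labelled replicate 1 or 2) and each of the other 4 genes in 1.

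Among 21 tested bZIP partners of AP-1 and small Maf proteins, Cebpd, an acute phase factor, fell (-0.85 ± 0.16 SE, limma adjusted p = 0.0249). That list had 12 lower means and a median of -0.04. Over all tested genes on the array, 3.04% fell and 51.5% had a lower mean. None of 20 tested genes upstream of the response, SRF, its cofactors and the MAP kinases, passed, with a median of -0.02. The smallest p-values there were those of the kinase genes Map2k1 (-0.41 ± 0.15 SE, limma adjusted p = 0.156) and Map2k2 (-0.32 ± 0.13 SE, limma adjusted p = 0.198). In the NF-kB and cytokine list, 2 of 13 fell, the adhesion receptor gene Icam1 (-0.48 ± 0.09 SE, limma adjusted p = 0.027) and the apoptosis inhibitor gene Birc3 (-0.79 ± 0.15 SE, limma adjusted p = 0.0269), and 11 had a lower mean. Of the 6 fits without 1 array, Cebpd passed in 2, Birc3 in 1 and Icam1 in 0.

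Stress programmes beyond the immediate early genes were mostly short of the threshold, which 3.04% of all tested genes passed with a fall and 1.92% with a rise. Of 13 heat shock genes 1 fell, Hspb1, a small heat shock protein, which read 8.57, 8.30 and 8.76 in Cre-labelled and 9.79, 9.39 and 9.80 in control-labelled lungs (-1.12 ± 0.15 SE, limma adjusted p = 0.00855). It passed in all 6 fits without 1 array, but like the other 8 genes of these lists that fell it did not pass without an intensity trend or with the cardiac covariate. The list median was -0.01. None passed of 14 genes of the integrated stress and unfolded protein response (median -0.20), 10 p53 targets (median -0.11), 20 mRNA decay machinery genes (median 0.11) and 12 hypoxia genes (median -0.09). The closest were Ern1 (-0.43 ± 0.11 SE) and Asns (0.39 ± 0.12 SE), Cdkn1a (-0.75 ± 0.20 SE) and Bbc3 (-0.68 ± 0.21 SE), Elavl1 (0.46 ± 0.12 SE) and Hnrnpd (0.44 ± 0.13 SE), and Ndrg1 (-0.54 ± 0.17 SE) and Pgk1 (0.36 ± 0.14 SE), with limma adjusted p between 0.0663 and 0.185.

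**Figure D5:**
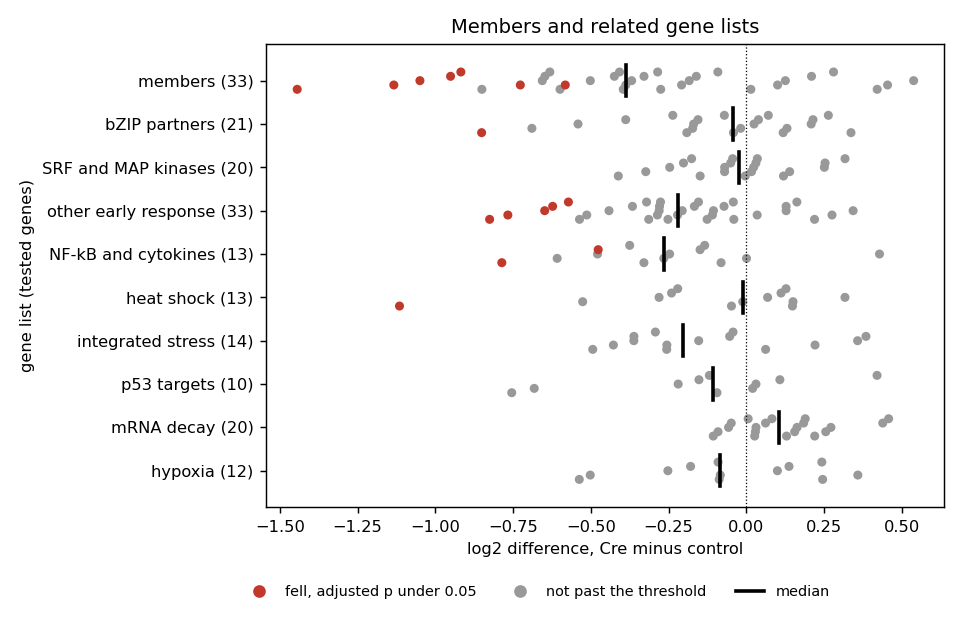
Log2 difference, Cre-labelled minus control-labelled (x axis), of each tested gene in the member list and in 9 related lists (y axis, number of tested genes in brackets); black bars are medians and red points fell at an adjusted p under 0.05. The member median lies at -0.39, that of the other early response genes at -0.22, and those of the bZIP partner, SRF and MAP kinase and heat shock lists near 0.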

How the data were processed

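The authors deposited log2 signals of one-colour Affymetrix arrays, made with MAS5 and affy per the submitters' processing notes, which give no versions; the sources used here name no further scaling. On every array the linear signals had a trimmed mean of 150.04 to 150.05 (2% cut at each end), and the median log2 signal was 4.81 to 5.03. Values were used as deposited. Of 45101 probe sets, 64 controls were left out, and 34945 had 1 gene symbol, 932 several and 9160 none; only the first kind was named.

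Probe sets whose mean over 6 arrays reached the 40th percentile (27022) entered a linear model of the 2 groups in limma 3.58.1 (R 4.3.3; eBayes, variance prior following intensity, no covariates, two-sided tests). P-values were Benjamini-Hochberg adjusted over all 27022 and called under 0.05; there were 4 residual and 5.32 prior degrees of freedom. The number of arrays limits the precision. The brightest probe set stood for a gene.

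The labels call the arrays biological replicates. Members and lists were chosen with earlier results of these data known, so no list was tested as a set. The rule for naming took every member, with values of each array for members past the threshold. Values of each array were also given for members whose groups did not overlap and whose absolute log2 difference was at least 0.5. Relatives of both kinds were treated alike. Of each other list the rule took the genes past the threshold or else the 2 with the smallest p. Of the list genes, those with no probe set found were not analysed here. Alternatives covered scaling, offsets, filters, variance model, array weights, replicate block, covariates, threshold, the mean of the probe sets of a gene and each array left out. Fetal sex was inferred from Xist against Y-linked genes, and Xist was the higher on 1 of 3 arrays in each group. The fit was tested on simulated data. Promoters came from RefSeq. Figures were drawn with matplotlib 3.10.9.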

Additional observations from a re-analysis of the deposited data

How the results depend on the processing

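The count of member genes past the threshold stayed between 5 and 9 under both scalings, both offsets, both filters, array weights, the sex and RNA integrity covariates and the mean of the probe sets of a gene. It was 1 without an intensity trend, 1 with the cardiac covariate, 11 at an adjusted p of 0.10 and 3 to 5 without 1 array. Member probe sets past the threshold numbered 1 without a trend, 1 with the cardiac covariate, 5 without a filter, 5 with the sex covariate, 15 at 0.10 and 3 to 6 without 1 array, against 8. Over all tested probe sets the count was 171 without a trend, 41 with the cardiac covariate, 587 with the sex covariate, 2120 at 0.10 and 314 to 495 without 1 array, against 963. The covariate fits have fewer residual degrees of freedom. The member median stayed negative in every alternative, at -0.40 to -0.28.

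Deviations of same-numbered arrays from their group means correlated at -0.014, 0.195 and 0.138 over all tested probe sets and at 0.195, 0.122 and 0.227 over the tested members. The labels name no pairs, so the numbers were not taken as pairs. These correlations do not settle whether same-numbered arrays belong together. With the replicate block 8 member genes, 10 member probe sets and 1309 probe sets in all passed; Mafk and Rhob were gained and Ccn1 was lost.

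Over the 33 members and their alternatives, 7 values changed sign, none of a called member. These were Csrnp1 (0.606) and Zfp36l2 (-0.059) with all probe sets of the gene averaged, Zfp36l2 after quantile normalization (-0.006), Egr1 with the cardiac covariate (0.018) and Egr1 and Btg1 in fits without 1 array. There Egr1 ran from -0.268 to 0.015 (above 0 without control-labelled replicate 3), and Btg1 from -0.031 without Cre-labelled replicate 3 to 0.226 (-0.026 without control-labelled replicate 1). The cause of these changes was not tested. Values far below 4 carry much noise, which limits Fosb, Fosl1, Egr2 and Nr4a3.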
